A study of Mus musculus with 6 samples.

Results

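The Hox cluster genes are the 39 mouse genes of the Hoxa, Hoxb, Hoxc and Hoxd clusters. They were chosen by symbol alone, as every symbol of the form Hox, a cluster letter and a paralog number, and they made up 39 of the 24346 symbols in the files and 45 of the 34535 transcript models. Hox genes encode homeodomain transcription factors and lie side by side in each cluster in the order in which they are used along the body axis. Low-numbered genes mark anterior regions, high-numbered genes mark posterior regions, and genes of equal number in different clusters are paralogs with related homeodomains. The urogenital sinus, from which the prostate forms, arises at the posterior end of the trunk, and fibroblasts in culture are known to keep a Hox code of the place they came from.

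RNA was measured in 6 libraries of primary stromal cells from prostates of C57BL/6 mice aged 8 to 12 weeks. All cells were grown on collagen with dihydrotestosterone, and cells that did not attach after a short replating were discarded. In 3 libraries the cells carried the FU-CGW lentiviral vector, and in 3 they carried the vector with a cDNA for S37A β-catenin, a Wnt effector made resistant to breakdown by the loss of a phosphorylation site. The question for the Hox genes was where along the clusters these stromal cells express them and whether their levels differ with S37A β-catenin. Separate mice or cultures are not named for the replicates, and a p-value here therefore reflects only how much these libraries vary, which may be technical. Values are FPKM (sequenced fragments corrected for transcript length and for the size of the library), which can be compared between genes because of the length correction. Group values are means ± SD over n = 3 libraries. In bulk RNA, fewer cells that express a gene and less RNA per cell cannot be told apart.

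The introduced gene and the culture were checked before the Hox genes were compared. Ctnnb1, which encodes β-catenin, read 116, 99.1 and 116 FPKM with vector and 132, 144 and 146 with S37A. Reads of the endogenous gene and of any matching part of the introduced cDNA were not separated. Axin2, a feedback target of Wnt signalling, was at 0.169, 0.0921 and 0.132 FPKM with vector and 3.29, 2.74 and 2.82 with S37A. Both genes were higher in every S37A library. The 6 fibroblast markers summed to 3760 to 4334 FPKM with vector and 4380 to 4809 with S37A, and of the 5 tested 0 rose and 1 fell, while 4 skeletal muscle markers summed to at most 0.0653 FPKM. The 5 smooth muscle markers summed to 6859 to 7277 FPKM with vector and 8089 to 8451 with S37A, and all 5 rose (limma, Benjamini-Hochberg). Of 7 macrophage markers tested, 6 rose, and the 8 on the list summed to 18.8 to 23.9 FPKM with vector and 51.1 to 58.3 with S37A. Ptprc, the pan-leukocyte gene and only untested member of that list, was between 0.0827 and 0.153 FPKM. The level of this gene alone does not settle whether leukocytes were present. The 10 epithelial markers summed to 13.3 to 19.4 FPKM with vector and 10.7 to 20.8 with S37A, and 0 of the 6 tested were called. Over all genes tested, 6.06% were called higher and 19.9% lower. The part of the marker shifts in the Hox values below was not tested.

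The homeoboxes of the highest member in each of 4 posterior paralog groups are printed because they show how far apart the leading Hox genes are in this stretch. Each is 180 bases of coding sequence in exon 2 from the GENCODE M21 annotation of mm10, 5′ to 3′ on the gene's strand. Capitals mark the 18 bases that encode the conserved core of the DNA recognition helix. Hoxb9 lies at chr11:96274659-96274838 on the plus strand, Hoxa10 at chr6:52232554-52232733 on the minus strand, Hoxa11 at chr6:52243402-52243581 on the minus strand and Hoxd13 at chr2:74669930-74670109 on the plus strand.
Hoxb9: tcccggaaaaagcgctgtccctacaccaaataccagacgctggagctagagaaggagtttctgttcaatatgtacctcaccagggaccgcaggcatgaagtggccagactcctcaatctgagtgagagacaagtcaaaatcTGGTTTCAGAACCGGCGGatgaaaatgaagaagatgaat
Hoxa10: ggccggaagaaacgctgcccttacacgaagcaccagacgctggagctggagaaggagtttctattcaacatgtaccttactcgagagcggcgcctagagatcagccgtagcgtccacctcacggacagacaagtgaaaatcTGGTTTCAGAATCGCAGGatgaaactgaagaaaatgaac
Hoxa11: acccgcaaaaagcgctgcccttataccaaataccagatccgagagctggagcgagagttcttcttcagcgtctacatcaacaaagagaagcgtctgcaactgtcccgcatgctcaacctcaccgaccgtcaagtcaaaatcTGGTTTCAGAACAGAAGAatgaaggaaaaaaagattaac
Hoxd13: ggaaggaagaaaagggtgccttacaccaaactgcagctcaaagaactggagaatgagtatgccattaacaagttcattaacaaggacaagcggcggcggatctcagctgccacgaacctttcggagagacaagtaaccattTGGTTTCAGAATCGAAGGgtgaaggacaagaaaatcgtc
Hoxb9 and Hoxa10 shared 75% of the 180 bases, Hoxa10 and Hoxa11 shared 67.8%, and Hoxb9 and Hoxd13, the least alike of these 4, shared 55.6%. Over all 39 homeoboxes, pairs of the same paralog group shared a median of 80.6% (67.2% to 93.9%, 42 pairs) and pairs of different groups 60.6% (46.1% to 88.9%, 699 pairs). The longest identical run between coding sequences of any pair was 52 bases, and it was 47 bases within a paralog group.

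The stromal cells had a posterior Hox profile carried by a few genes. Averaged over the 6 libraries, 5 of the 39 genes reached 10 FPKM: Hoxa10, Hoxa11, Hoxd13, Hoxb9 and Hoxb2. These 5 genes held between 53.8% and 57.9% of the summed Hox FPKM of each library. All but Hoxb2 belong to paralog groups 9 to 13. A level of 5 FPKM was reached by 8 genes and 1 FPKM by 22. Even the leading members were not abundant transcripts: Hoxa10 was above 70.4% of the 12022 genes tested, whose median was 8.68 FPKM.

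**Figure D1:**
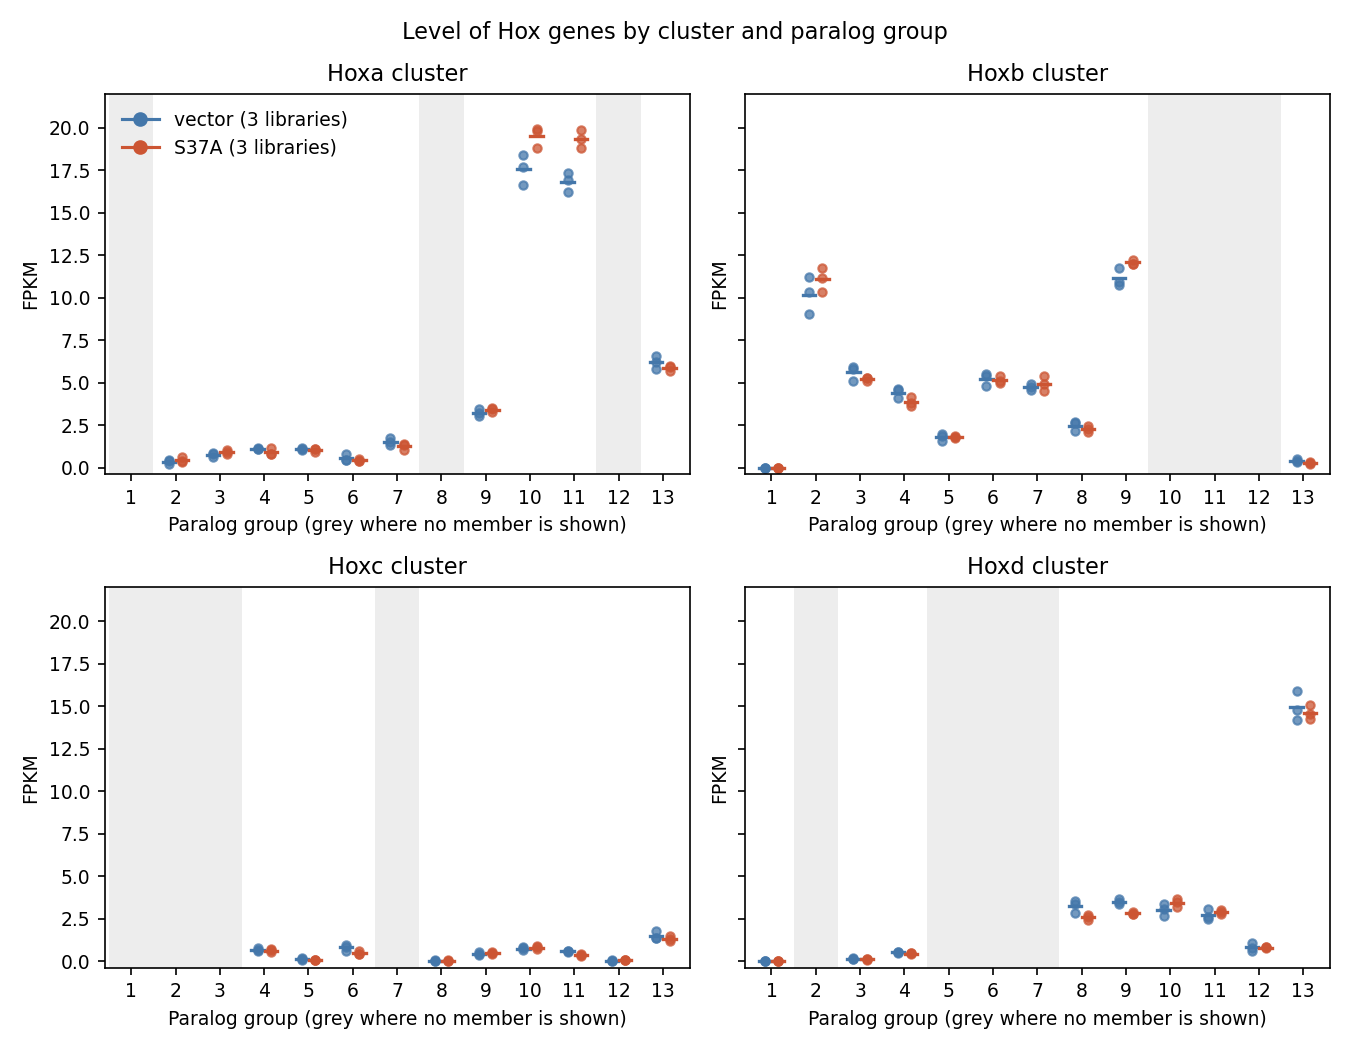
FPKM of Hox genes (vertical axis) by paralog group (horizontal axis) in the 4 clusters. Points are libraries, 3 vector and 3 S37A, bars are group means, and grey bands mark positions with no member shown. Hoxa10, Hoxa11 and Hoxd13 stand above 14 FPKM in every library, while the highest Hoxc value is 1.76 FPKM.

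In the Hoxa cluster, which runs over 106 kb of chromosome 6, the levels stepped up sharply towards the posterior genes. Hoxa13, the most posterior of them, was lower again. Hoxa10 and Hoxa11, which pattern the reproductive tract, were the highest, with means of 18.5 and 18.1 FPKM over the 6 libraries and overlapping ranges. Hoxa10 was at 18.4, 16.6 and 17.6 FPKM with the vector and 19.8, 18.8 and 19.9 in the S37A libraries. Hoxa13, needed for the formation of the hindgut end and the genital tubercle, followed at 6.02 FPKM and Hoxa9 at 3.31, each apart from its neighbours in the order. The members from Hoxa7 down to Hoxa2 in this order lay between 1.39 and 0.390 FPKM, and most neighbours in that part of the order overlapped. Hoxa5 and Hoxa4 had means of 1.06 and 1.01 FPKM, and Hoxa2 and Hoxa6 fell below the filter for testing, an average of 0.5 FPKM in the 6 libraries.

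The Hoxb cluster, over 174 kb of chromosome 11, was the only one with a high anterior gene as well as a high posterior one. Hoxb9 had the highest mean at 11.6 FPKM, with 10.8, 10.9 and 11.7 in the vector libraries and 12.0, 12.2 and 12.0 in the S37A libraries. Hoxb2, known for patterning the hindbrain, was next at 10.6 FPKM, and its range overlapped that of Hoxb9. Between them along the chromosome, Hoxb3 (5.40 FPKM), Hoxb6 (5.18), Hoxb7 (4.84) and Hoxb4 (4.13) formed a plateau with overlapping neighbours. Hoxb8 (2.36 FPKM) and Hoxb5 (1.8) were lower and apart from each other. Hoxb1, at the anterior end, was listed at 0 in every library. Hoxb13, which is known as a gene of the prostate epithelium, was at 0.374, 0.339 and 0.505 FPKM with vector and 0.295, 0.213 and 0.335 with S37A, so it was the lowest detected Hoxb gene in each library.

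The 9 genes of the Hoxc cluster (chromosome 15, 116 kb) were low. Hoxc13, best known from hair and nails, was the highest at 1.76, 1.36 and 1.38 FPKM with the vector and 1.47, 1.27 and 1.16 in the S37A libraries, with its range apart from the next gene. Hoxc10 (0.764 FPKM), Hoxc6 (0.643), Hoxc4 (0.638), Hoxc11 (0.464) and Hoxc9 (0.453) formed an overlapping series. Hoxc5, Hoxc12 and Hoxc8 were at 0.0940 FPKM or less. All 9 together summed to 4.90 ± 0.336 FPKM with vector and 4.15 ± 0.130 with S37A, less than Hoxb9 alone.

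In the Hoxd cluster (chromosome 2, 96.8 kb), Hoxd13 stood alone. This most posterior gene, which acts with Hoxa13 in the genital tubercle and limb tip, was at 14.8, 15.9 and 14.2 FPKM with vector and 14.2, 14.5 and 15.1 with S37A. Its neighbour Hoxd12 was at 1.07, 0.747 and 0.611 FPKM with vector and 0.760, 0.806 and 0.803 with S37A, a step down from 14.8 to 0.800 FPKM in the means of adjacent genes. Hoxd10 (3.22 FPKM), Hoxd9 (3.15), Hoxd8 (2.91) and Hoxd11 (2.81) then formed a group with overlapping neighbours. The anterior genes Hoxd4 (0.481 FPKM) and Hoxd3 (0.110) were below the filter, and Hoxd1 was listed at 0 in every library.

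Summed by paralog group, groups 13, 10, 11 and 9 were the highest, with means of 22.5, 22.5, 21.3 and 18.5 FPKM over the 6 libraries. The highest members came from 3 clusters: Hoxd13 in group 13, Hoxa10 and Hoxa11 in groups 10 and 11, and Hoxb9 in group 9. Group 12 interrupted this series at 0.843 FPKM, almost all of it from Hoxd12. Group 2 followed at 11 FPKM, nearly all of it from Hoxb2.

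Most Hox genes were at close levels in the S37A and vector libraries. Of the 27 genes above the filter, 1 rose (Hoxa11) and 2 fell (Hoxd8 and Hoxd9) at an adjusted p of 0.05 (limma on log2(FPKM + 1), Benjamini-Hochberg over all 12022 genes). Among all genes tested, 26.0% were called, 6.06% higher and 19.9% lower. No Hox difference exceeded 0.27 on the log2(FPKM + 1) scale in either direction, and all 27 of the 95% intervals lay between -0.48 and 0.32. That scale understates the change of low genes. The median Hox difference was -0.01, beside -0.07 for all genes tested, and the median size without regard to sign was 0.11 in both. At an unadjusted p of 0.05, limma marked 8 of the 27, where 42.7% of all genes were marked. With scaling by median ratios 3 Hox genes (Hoxa10, Hoxa11 and Hoxb9) were higher and 1 lower, and with quantile normalization 3 and 0. These 2 scalings also turned the split over all genes from 729 higher and 2393 lower to 1265 and 945 and to 1094 and 957. They moved the Hox median to 0.04 and that of all genes to -0.003 and -0.01.

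**Figure D2:**
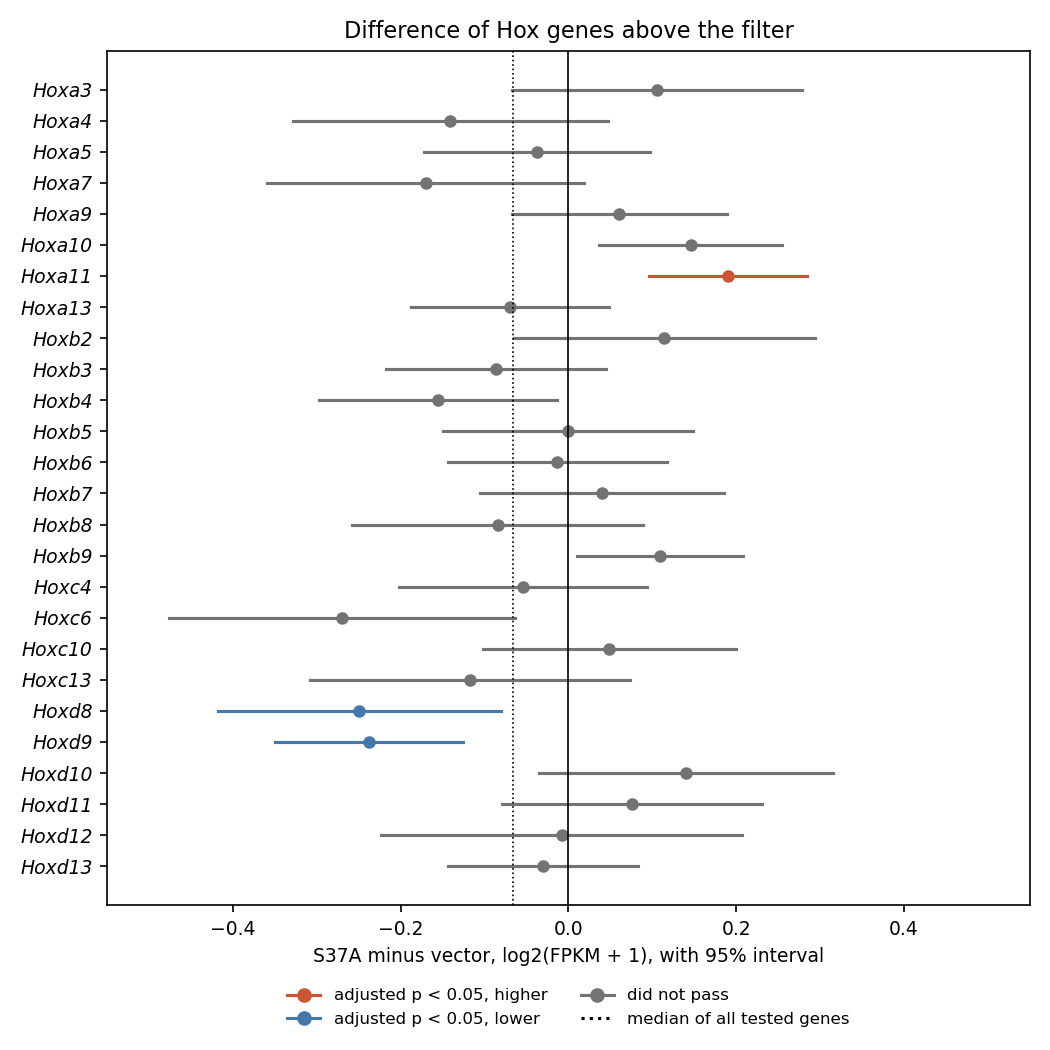
Difference of Hox genes above the filter, S37A minus vector on the log2(FPKM + 1) scale (horizontal axis), with 95% intervals, in cluster order. Hoxa11 (0.19) was called higher and Hoxd8 (-0.25) and Hoxd9 (-0.24) lower; the dotted line is the median of all genes tested (-0.07).

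Hoxa11, which is needed for the uterus, kidney and forearm, was at 17.3, 16.2 and 16.9 FPKM with the vector and 18.8, 19.3 and 19.9 in the S37A libraries. The groups did not overlap, and every S37A library was above every vector library. The means were 16.8 ± 0.572 and 19.3 ± 0.548 FPKM, a ratio of 1.15 (log2 difference 0.19, SE 0.04, limma adjusted p = 0.0179). Hoxa11 lies at chr6:52242105-52245810 (mm10) on the minus strand, and the intervals the authors deposited were within 6.27% to 6.50% of each value. Its noncoding partner Hoxa11os overlaps it on the opposite strand and was at 12.2 ± 0.627 FPKM with vector and 12.1 ± 0.797 with S37A (limma adjusted p = 0.809). The library kit does not mark strand, so reads from the shared stretch cannot be told apart. The call was lost without S37A replicate 2 or replicate 3 (limma adjusted p = 0.0593 and 0.0703), with differences of 0.19 and 0.17, and with the replicate number as a block (0.0502).

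Hoxd9, which acts in the limb and lumbosacral region, was at 3.67, 3.46 and 3.35 FPKM with the vector and 2.75, 2.90 and 2.77 in the S37A libraries. All 3 S37A libraries were below all 3 vector libraries. The means were 3.49 ± 0.164 and 2.81 ± 0.0813 FPKM, a ratio of 0.804 (log2 difference -0.24, SE 0.05, limma adjusted p = 0.0159). The call was lost without S37A replicate 3 (limma adjusted p = 0.0607) and under quantile normalization (0.0644). Hoxd9 lies at chr2:74697763-74700208 on the plus strand.

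Hoxd8, its neighbour on the anterior side at chr2:74704615-74707932, was at 2.85, 3.54 and 3.36 FPKM with vector and 2.41, 2.73 and 2.57 with S37A. The groups were apart, though vector replicate 1 lay close to the highest S37A library. The means were 3.25 ± 0.359 and 2.57 ± 0.159 FPKM, a ratio of 0.790 (log2 difference -0.25, SE 0.07, limma adjusted p = 0.0421). This call was the least stable: it was lost without vector replicate 2 or 3 and without any 1 of the S37A libraries, with limma adjusted p-values from 0.0735 to 0.112. It was also lost with no filter and under 3 other scalings. When only the highest of its 3 transcript models was kept, the difference was -0.01 (limma adjusted p = 0.965).

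The stretches around the start sites of these 3 genes are printed because they are the members that passed the test in a comparison of a Wnt effector. β-catenin has no DNA contact of its own and acts through TCF and LEF factors, whose sites can hold CTTTGA. Other forms of the site were not searched for. Each sequence is from RefSeq (GRCm38.p6), on the gene's strand, from 250 bases before the start site to 30 after it, with CTTTGA, or its reverse complement TCAAAG, in capitals. Hoxa11 is chr6:52245781-52246060 on the minus strand, Hoxd8 chr2:74704365-74704644 and Hoxd9 chr2:74697513-74697792, both on the plus strand.
Hoxa11: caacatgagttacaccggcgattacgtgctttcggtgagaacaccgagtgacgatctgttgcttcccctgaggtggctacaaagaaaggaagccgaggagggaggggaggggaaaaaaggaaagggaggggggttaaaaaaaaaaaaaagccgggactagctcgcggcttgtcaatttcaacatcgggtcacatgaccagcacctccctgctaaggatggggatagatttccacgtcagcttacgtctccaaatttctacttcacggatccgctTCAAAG
Hoxd8: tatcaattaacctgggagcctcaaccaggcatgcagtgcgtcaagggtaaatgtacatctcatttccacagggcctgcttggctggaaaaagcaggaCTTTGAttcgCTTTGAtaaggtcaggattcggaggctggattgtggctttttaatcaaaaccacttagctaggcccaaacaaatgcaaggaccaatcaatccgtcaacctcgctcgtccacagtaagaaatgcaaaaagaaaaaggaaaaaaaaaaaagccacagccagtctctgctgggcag
Hoxd9: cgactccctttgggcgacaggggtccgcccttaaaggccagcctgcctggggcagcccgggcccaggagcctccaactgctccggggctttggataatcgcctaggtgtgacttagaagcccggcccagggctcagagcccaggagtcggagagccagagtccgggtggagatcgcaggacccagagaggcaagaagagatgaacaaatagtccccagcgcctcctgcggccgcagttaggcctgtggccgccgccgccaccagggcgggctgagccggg
Hoxa11 held the motif on the opposite strand at position 24 from the start site, Hoxd8 held it at positions -153 and -143 relative to the start site, and Hoxd9 held none in this window. The Hoxd8 window belongs to the model from chr2:74704615. That model was at 0.900, 1.87 and 1.72 FPKM with vector and 1.41, 1.51 and 1.39 with S37A, with overlapping groups. The other Hoxd8 models start at chr2:74705489, outside the printed window. RefSeq promoters of 300 bases, reaching 50 bases past the start site, were given for 22 of the 39 Hox symbols, as 24 entries. CTTTGA occurred on either strand in 4 of these 24 (16.7%), beside 16.0% of all 32851 promoters. The other 2 were Hoxa10 and Hoxd12, neither of which passed the test. TAATTA, a homeodomain site that reads the same on both strands, occurred in 2 of 24 (8.33%) beside 5.29% of all, both of them start sites of Hoxd11. The Hox promoters had a median GC content of 57.7% and 14.5 CpG pairs, against 52.7% and 7 over all promoters. A match of 6 bases describes the sequence and is not a binding site.

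Of the 27 genes tested, 6 had groups that did not overlap, 4 above and 2 below, where 47.8% of all genes did not overlap, 11.3% above and 36.5% below. Besides the 3 called genes these included Hoxa10 and Hoxb9, both above. Hoxa10 differed by 0.15 on the log2 scale (SE 0.05, limma adjusted p = 0.0559) and passed in 6 alternative fits, among them median-ratio scaling (0.0284) and the fit without vector replicate 1 (0.0357). Hoxb9 differed by 0.11 (SE 0.04, limma adjusted p = 0.0920) and passed under the 3 other scalings. In the highest member of each of groups 9 to 11, every S37A library was above every vector library, and 1 of the 3 passed. Their means were higher by 8.51% to 14.9% of the vector mean. The other members of these groups did not follow. Hoxd9 was called lower, Hoxc11 was below in every S37A library, and Hoxa9, Hoxc9, Hoxc10, Hoxd10 and Hoxd11 overlapped. In Hoxd13, the highest of group 13, the groups overlapped and the difference was -0.03 (95% interval -0.14 to 0.08).

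Among the other members, Hoxc6 had the largest difference in the set, -0.27 (SE 0.09, limma adjusted p = 0.0592). It was at 0.851, 0.947 and 0.597 FPKM with vector and 0.427, 0.441 and 0.597 with S37A, and the groups met at vector replicate 3. Without that library it passed (limma adjusted p = 0.0376). Hoxb4 differed by -0.16 (limma adjusted p = 0.0929), and the groups overlapped. By position, 3 of 7 tested genes of groups 1 to 4 had a positive difference. The counts were 1 of 8 in groups 5 to 8 and 7 of 12 in groups 9 to 13. The medians were -0.05, -0.06 and 0.05, beside -0.07 for all genes tested. By cluster, the difference was positive in 5 of 9 Hoxa, 3 of 8 Hoxb, 1 of 4 Hoxc and 2 of 6 Hoxd genes. These signs depended on the scaling. Positive Hox differences numbered 11 as reported, 16 under median-ratio scaling, 17 under quantile normalization and 15 with the 100 most abundant genes left out.

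The 12 members below the filter were Hoxa2, Hoxa6, Hoxb1, Hoxb13, Hoxc5, Hoxc8, Hoxc9, Hoxc11, Hoxc12, Hoxd1, Hoxd3 and Hoxd4. In 3 of these the S37A libraries were all below the vector libraries: Hoxb13, Hoxc11 and Hoxd4. Over all genes above the filter this held for 36.5%, and no such share was computed for genes below it. Hoxc11, a posterior gene of the lumbosacral region, was at 0.558, 0.585 and 0.587 FPKM with vector and 0.347, 0.400 and 0.309 with S37A. In a fit without the filter, over 19606 genes, it differed by -0.22 (SE 0.03, limma adjusted p = 0.0194), although the deposited intervals spanned 42.6% to 64.6% of each single value on either side. In the same fit Hoxd4 and Hoxb13 differed by -0.08 and -0.13 and did not pass (limma adjusted p = 0.128 and 0.161). For the 17 single-model members averaging 1 FPKM or more, the deposited intervals lay within 4.55% to 29.5% of the value, and for 12 lower ones, leaving out those with a lower bound of 0, within 17.8% to 70.7%.

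The share of the Hox transcripts held by posterior genes was slightly larger with S37A. Paralog groups 9 to 13 held 63.9%, 64.7% and 64.0% of the summed Hox FPKM with the vector and 67.0%, 66.0% and 65.5% in the S37A libraries. The means were 64.2% ± 0.443 and 66.2% ± 0.755, and the groups did not overlap. Groups 5 to 8 went the other way, from 16.6% ± 0.219 to 15% ± 0.270, again without overlap, while groups 1 to 4 overlapped at 19.2% ± 0.510 and 18.8% ± 0.486. Within groups 9 to 13 the summed FPKM did not move as 1 class. It went from 21.31 ± 1.34 to 23.73 ± 0.553 in group 10 and from 20.10 ± 0.833 to 22.58 ± 0.586 in group 11. The highest members of these groups, Hoxa10 (17.6 to 19.5 FPKM) and Hoxa11 (16.8 to 19.3), are also counted in the Hoxa share below. Group 13 fell from 23.04 ± 0.376 to 22.03 ± 0.185 FPKM, and groups 9 and 12 changed less. By cluster, Hoxa held 38.7% ± 0.178 with vector and 41.0% ± 0.508 with S37A, with no overlap. The Hoxc share was 3.76% ± 0.189 and 3.13% ± 0.0974 and the Hoxd share 22.2% ± 1.06 and 20.8% ± 0.232, both lower in every S37A library. Without Hox genes under 1 FPKM the Hoxc difference shrank from -0.634 to -0.185 percentage points. The Hoxb share overlapped at 35.3% ± 0.990 and 35.1% ± 0.399. The summed Hox FPKM was 130.1 ± 4.54 and 132.8 ± 3.20, with overlapping libraries. These shares are sums over the members and were not tested. They are parts of the same total, so a larger share of some genes lowers the shares of others.

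**Figure D3:**
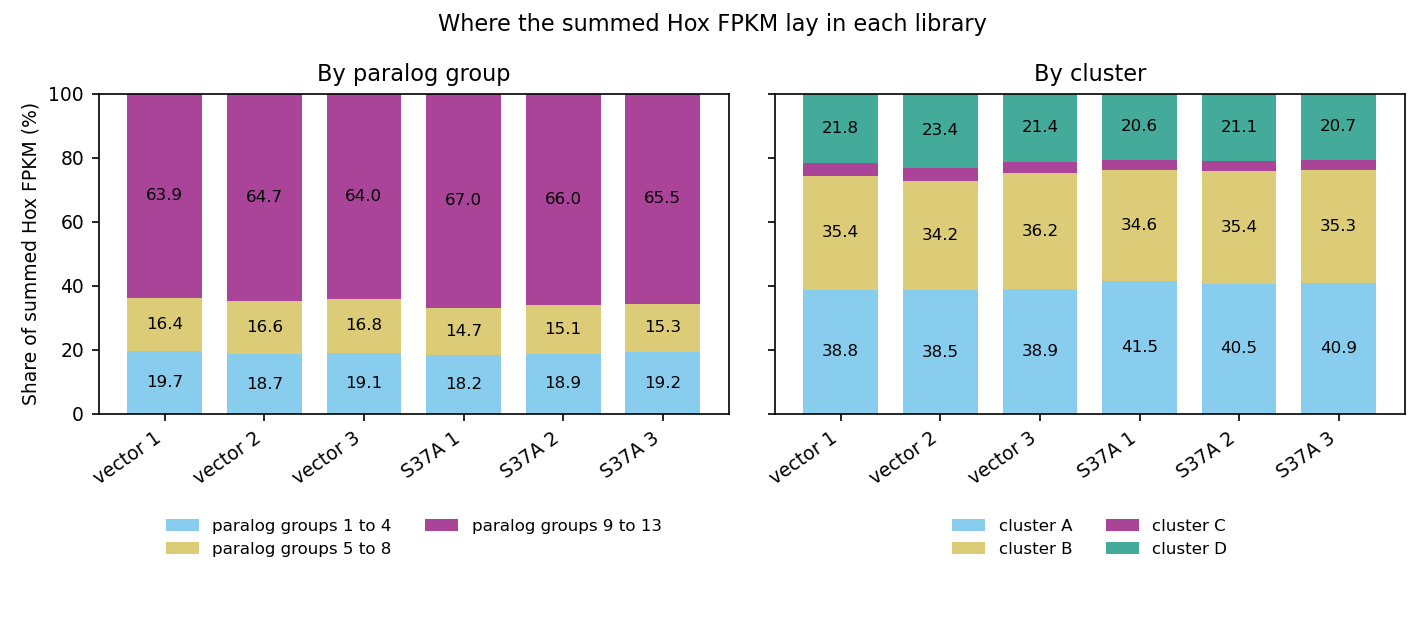
Share of the summed Hox FPKM (vertical axis, percent) in each of the 6 libraries (horizontal axis), by paralog group at left and by cluster at right. Paralog groups 9 to 13 hold 63.9% to 64.7% in the vector libraries and 65.5% to 67.0% in the S37A libraries.

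The posterior share was also computed within each cluster, where the Hoxa share again counts Hoxa10 and Hoxa11. Groups 9 to 13 made up 86.9% ± 0.535 of the Hoxa sum with vector and 88.3% ± 0.367 with S37A, and 86.5% ± 1.48 and 88.8% ± 0.396 of the Hoxd sum, both without overlap. The same share was 25.1% ± 1.57 and 26.5% ± 0.834 in Hoxb and 67.0% ± 2.39 and 71.6% ± 3.47 in Hoxc, where the libraries overlapped. The Hoxb cluster was thus the only one in which groups 9 to 13 held the smaller part. The larger posterior share in Hoxd came without a larger sum. The Hoxd sum was 28.9 ± 0.926 FPKM with vector and 27.6 ± 0.782 with S37A, with overlapping libraries. Both called Hoxd genes were lower: Hoxd8, outside groups 9 to 13 (3.25 to 2.57 FPKM), and Hoxd9, inside them (3.49 to 2.81).

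For 5 members the files held more than 1 transcript model: Hoxa9, Hoxa10, Hoxb3, Hoxd8 and Hoxd11. Shares of 11 models were compared by exact 2-sided permutation tests over libraries, chosen after their values had been seen, and with 3 libraries against 3 the smallest p possible is 0.1. The Hoxb3 model with the shorter span (chr11:96343769-96347930) held 29.8%, 26.9% and 23.6% of the gene's FPKM with vector and 36.7%, 32.9% and 34.0% with S37A, with no overlap (exact permutation p = 0.1, adjusted 0.183). The noncoding Hoxd11 model (chr2:74679558-74687016) held 53.6%, 51.7% and 56.7% with vector and 67.6%, 58.0% and 61.6% with S37A (exact permutation p = 0.1, adjusted 0.183). At Hoxa10 the model that reaches farther upstream (chr6:52231197-52240854) held 78.1% to 84.0% of the FPKM, with overlapping groups. At Hoxd8, the model from chr2:74704615 held 31.6%, 52.9% and 51.0% with vector and 58.6%, 55.5% and 54.0% with S37A (exact permutation p = 0.1, adjusted 0.183). The other 2 Hoxd8 models share a span, are 2046 and 2049 bases long, and together hold what the first does not. Their shares are therefore not independent of it. The 2046-base model held 68.4%, 47.1% and 49.0% with vector and 41.4%, 10.5% and 46.0% with S37A (exact permutation p = 0.1, adjusted 0.183). The 2049-base model was listed at 0 in 5 libraries and held 34.1% in S37A replicate 2. 

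**Figure D4:**
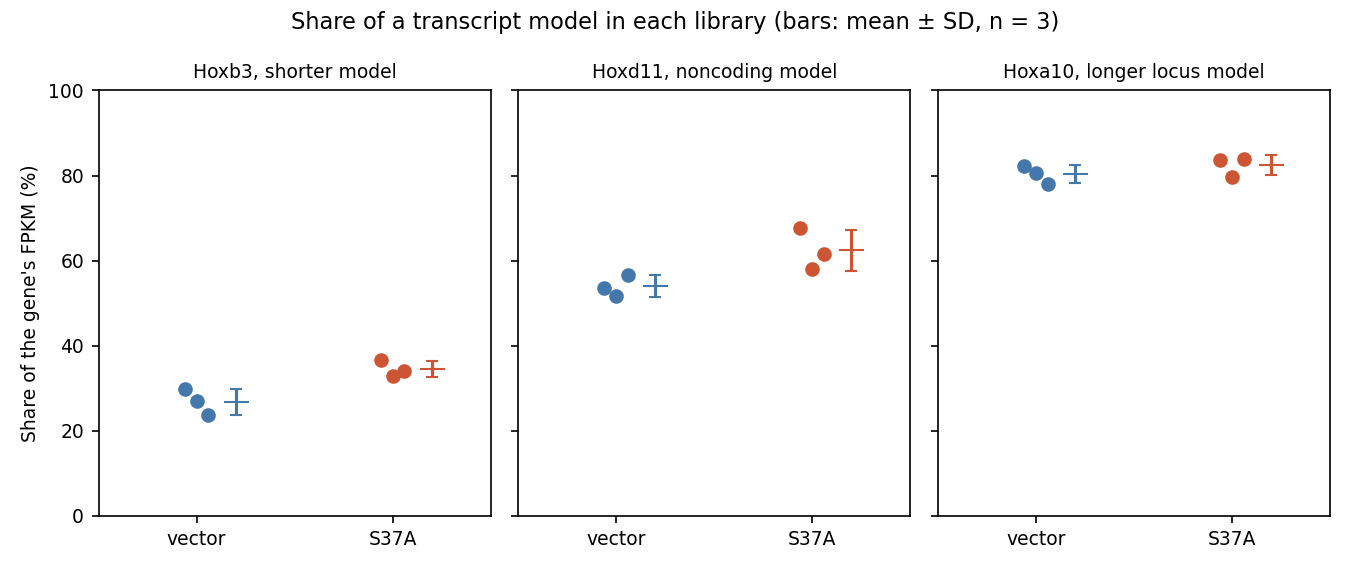
Share of a gene's FPKM (vertical axis, percent) held by 1 transcript model of Hoxb3, Hoxd11 and Hoxa10 in the vector and S37A libraries. Points are libraries and bars are the mean ± SD of 3; the groups are apart for Hoxb3 and Hoxd11 and overlap for Hoxa10.

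Other transcripts inside the clusters were compared in the same fit. Of 18 other symbols between the outermost Hox genes, 7 were listed at 0 in every library and 6 passed the filter. Hoxb5os, a noncoding transcript on the strand opposite to Hoxb5 and Hoxb6, was at 13.9, 17.1 and 13.4 FPKM with vector and 11, 11.4 and 10.9 with S37A, with no overlap, and fell (difference -0.38, SE 0.08, limma adjusted p = 0.0198). Hoxb5 and Hoxb6, which it overlaps, differed by -0.0005 and -0.01 and did not pass. Because the kit does not mark strand, reads from the shared stretches cannot be told apart here either. Mira, a noncoding transcript at chr6:52214492-52215288, fell from 4.55 ± 0.135 to 3.83 ± 0.217 FPKM (difference -0.20, SE 0.05, limma adjusted p = 0.0275). It lies inside the GENCODE span of Hoxa7 and outside the shorter Hoxa7 model of the files. Hotairm1, a noncoding transcript, was the most abundant of these transcripts in the Hoxa cluster at 31.1 ± 4.19 and 28.3 ± 3.27 FPKM, above every Hox gene, and did not pass (limma adjusted p = 0.401). Hotair in the Hoxc cluster was at 0.0392 FPKM with vector and 0.0220 with S37A, and Haglr in the Hoxd cluster at 0.0117 and 0.00926. Mir10a was listed at 0 in 5 libraries and at 90.8 FPKM in S37A replicate 3.

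Outside the clusters, the 3 nearest tested genes on either side of each cluster gave 24 genes, of which 0 rose and 3 fell at a limma adjusted p of 0.05, beside 6.06% and 19.9% of all genes. They were Cbx1, a heterochromatin protein gene 421 kb from Hoxb (23.4 to 17.3 FPKM), Calcoco1 199 kb from Hoxc (20.5 to 15.7) and Mtx2 60.7 kb from Hoxd (38 to 34.9). The highest flanking genes were Tax1bp1, 453 kb from Hoxa (55.6 and 51.3 FPKM), and Atp5g1, 119 kb from Hoxb (67.8 and 65.8). For the other clusters they were Atp5g2, 250 kb from Hoxc (118.9 and 113.1), and Atp5g3, 757 kb from Hoxd (301.6 and 301.8). None of these 4 passed the test. Each lay above every Hox gene in level.

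TALE homeodomain proteins bind DNA together with Hox proteins. All 9 of their genes were tested, with 0 higher and 1 lower, where 6.06% and 19.9% of all genes were called, and a median difference of -0.03 beside -0.07 for all genes. Meis2, at 17.4 ± 0.797 and 17.1 ± 0.286 FPKM, was among the most abundant and did not pass. Pbx2 fell from 7.64 ± 0.417 to 6.41 ± 0.0717 FPKM (limma adjusted p = 0.0183). Pknox2 (8.55 and 9.40 FPKM, limma adjusted p = 0.0890) and Pbx4 (0.933 and 0.855, 0.433) did not pass. Under median-ratio scaling and quantile normalization 1 TALE gene was higher and 0 lower, and the median was 0.04 and 0.03. Without S37A replicate 2 or 3, 0 were called.

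Polycomb group proteins keep silent Hox genes repressed, and trithorax group proteins keep active ones on. Of 22 tested Polycomb genes 0 rose and 7 fell, with a median of -0.14, where 19.9% of all genes were lower and their median was -0.07. Ezh2, the methyltransferase of Polycomb complex PRC2, fell from 7.13 ± 0.726 to 4.80 ± 0.244 FPKM (difference -0.48, SE 0.07, limma adjusted p = 0.0077). Suz12, another core subunit, fell from 12.3 ± 1.39 to 9.65 ± 0.332 FPKM, and its accessory partner Mtf2 fell from 3.90 ± 0.156 to 3.01 ± 0.0875. The most abundant members, Rbbp7 (82.8 and 88.1 FPKM) and Phc2 (52.7 and 50.8), did not pass. Median-ratio scaling and quantile normalization each left 3 Polycomb genes lower and 1 higher, with a median of -0.07 in both. The lower Polycomb genes numbered 3 without vector replicate 2, vector replicate 3 or S37A replicate 2, 4 without S37A replicate 1, 2 without S37A replicate 3, 3 with the replicate number as a block and 2 with the highest transcript model.

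Of the 12 trithorax group and demethylase genes 0 rose and 5 fell, with a median of -0.10, beside 19.9% lower and a median of -0.07 over all genes. The 3 with the smallest p encode shared subunits of the MLL complexes: Rbbp5 (6.95 ± 0.299 to 5.46 ± 0.247 FPKM), Wdr5 (17.5 ± 1.69 to 14.2 ± 0.0876) and Dpy30 (22.5 ± 1.70 to 18.4 ± 1.12). The latter pair were also the most abundant of the list. Under the same 2 scalings 2 and 3 of these genes were lower, and 0 were higher. The count of lower genes was 2 without vector replicate 2, vector replicate 3 or S37A replicate 1, 1 without S37A replicate 2 or 3, and 3 with the block or with the highest transcript model.

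**Figure D5:**
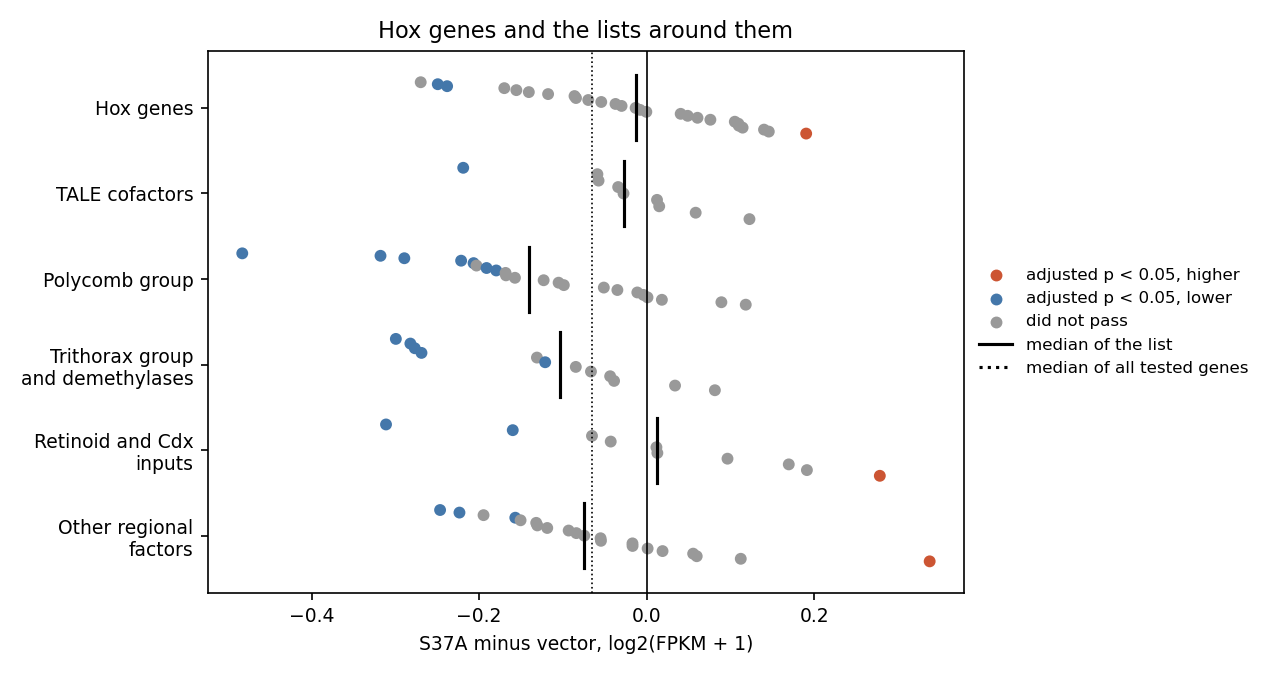
Difference of each tested gene, S37A minus vector on the log2(FPKM + 1) scale (horizontal axis), for the Hox genes and 5 related lists (vertical axis, points spread for visibility). Black bars are list medians, from -0.14 (Polycomb group) to 0.01 (retinoid and Cdx inputs), and the dotted line is the median of all genes tested (-0.07).

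Retinoic acid and Cdx factors set Hox expression in the embryo. Of 16 genes on that list 10 were tested, 1 rose and 2 fell, with a median of 0.01, beside 6.06% higher and 19.9% lower over all genes. Aldh1a2, which makes retinoic acid, rose from 14.7 ± 1.31 to 18.1 ± 1.08 FPKM (limma adjusted p = 0.0289). The retinoid X receptor genes Rxra (10.5 ± 0.422 to 8.25 ± 0.280 FPKM) and Rxrb (11.7 ± 0.329 to 10.3 ± 0.530) fell. Rarg, the most abundant at 19.0 and 18.4 FPKM, did not pass. Cdx4 was listed at 0 in every library, and Cdx1 and Cdx2 were below the filter. The 2 scalings gave 3 higher and 1 lower. No gene of this list was called higher with the block or without vector replicate 2, S37A replicate 2 or S37A replicate 3. The lower genes numbered 1 with the block, 0 with the highest transcript model, and 1 in each fit that left out a single library other than vector replicate 1 or S37A replicate 2.

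Other transcription factors that mark regions of mesenchyme gave 21 tested genes of 29, with 1 higher and 3 lower and a median of -0.07, the same as that of all genes, of which 6.06% were higher and 19.9% lower. Tcf21, a factor of visceral mesenchyme, rose from 6.01 ± 0.487 to 7.89 ± 1.07 FPKM (limma adjusted p = 0.0380). Tbx4, of hindlimb mesenchyme, fell from 1.35 ± 0.0776 to 1.01 ± 0.0439 FPKM and En1 from 3.38 ± 0.303 to 2.69 ± 0.167. Isl1, at 7.79 and 7.69 FPKM, was among the most abundant and did not pass. Quantile normalization left 2 of these genes higher and 0 lower, and median-ratio scaling 2 and 1. Of this list 0 genes were called in either direction with the block or without vector replicate 3, S37A replicate 2 or S37A replicate 3. There were 0 higher and 1 lower without vector replicate 2 and 1 higher and 0 lower without S37A replicate 1.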

How the data were processed

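The 3 vector and 3 S37A libraries were grouped by sample title. Per the labels' protocols, a SMART-Seq v4 kit was used, which does not mark strand. The submitters' processing notes name bcl2fastq 1.8.3, TopHat, Cufflinks and the mm10 build. The deposited files hold, per the file headers, FPKM per transcript model, its confidence bounds and a coverage signal, which was not used; the precision of single values was read from the bounds. FPKM were summed over the models of each symbol. Left out were 5 genes whose status was not OK in a library. The limma test (version 3.58.1, in R 4.3.3) ran on log2(FPKM + 1) for all genes averaging 0.5 FPKM or more, using the trend option and Benjamini-Hochberg adjustment at 0.05. The script was tested on simulated data. Strand and exons come from GENCODE M21. The naming rule takes all Hox genes, the 3 genes with the smallest p and the 2 most abundant of each list, and called or most abundant genes near the clusters. The members and lists were chosen with earlier results of these data known. A comparison of homeodomain proteins was planned and was made on homeobox DNA. Some genes that meet the naming rule are not reported here.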

Additional observations from a re-analysis of the deposited data

How the results depend on the processing

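Over 18 alternative settings, 486 of the values were the same in direction and call, 42 lost a call or gave a lower count, 24 gained a call or gave a higher count, 30 turned sign and 1 share moved. Higher Hox genes numbered 1 as reported, 2 with a filter of 5 FPKM, 3 under median-ratio scaling, 3 under quantile normalization, 3 with the 100 most abundant genes left out, 3 with array weights and 0 with the replicate block. Lower Hox genes numbered 2 as reported, and 0, 1, 0, 1 and 4 in the same order of settings before the block, and 1 with the highest transcript model. The first 0 is for the filter of 5 FPKM, under which Hoxd8 and Hoxd9 (means of 2.91 and 3.15 FPKM) were not tested. Leaving out 1 library gave 0 to 2 higher and 0 to 2 lower Hox genes. Over all genes, 729 were higher and 2393 lower; the counts were 1265 and 945 under median-ratio scaling, 1094 and 957 under quantile normalization, 1238 and 3655 with array weights, 442 and 1193 with the replicate block, 1500 lower with the 100 most abundant genes left out and 1491 lower with the highest transcript model. Leaving out 1 library gave 298 to 747 higher and 606 to 2401 lower. The Hoxc share differed by -0.634 percentage points, and by -0.185 without Hox genes under 1 FPKM. The cause of these shifts was not tested.

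The replicate numbers share only a number: deviations of same-numbered libraries correlated at -0.12, 0.0207 and 0.104. With the replicate block, Hoxa11 lost its call (limma adjusted p = 0.0502), while Hoxd8 and Hoxd9 passed.

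The 30 sign changes fell on 7 uncalled genes near 0, in log2 units. Under median-ratio scaling and quantile normalization Hoxa5 was 0.00105 and 0.0105, Hoxb5 0.048 and 0.073, Hoxb6 0.050 and 0.073, Hoxd12 0.025 and 0.041, and Hoxd13 0.040 and 0.027; Hoxa13 was 0.0062 under quantile normalization. With the 100 most abundant genes left out Hoxb5 was 0.022, Hoxb6 0.016, Hoxd12 0.0070 and Hoxd13 0.0031. With array weights Hoxd12 was 0.088 and Hoxd13 0.029. With pseudocounts of 0.1 and 0.5, Hoxb5 was 0.00099 and 2.9e-05. Leaving out 1 library gave -0.061 to 0.038 for Hoxb5, -0.063 to 0.017 for Hoxb6, -0.012 to 0.096 for Hoxb7, -0.088 to 0.093 for Hoxd12 and -0.065 to 0.011 for Hoxd13. FPKM carry no read counts, so the depth limits the low Hoxc genes by an amount shown only by their intervals.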
